A study of Bos taurus with 12 samples.

Results

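The nuclear lamina and envelope genes described here are 10 genes, LMNA, LMNB1, LMNB2, LBR, TMPO, SUN1, SUN2, SYNE1, SYNE2 and NEMP1. They were selected by gene symbol from the 18436 genes of the expression table, and each symbol matched 1 row. In the m6A peak lists these genes hold 23 of the 19739 peaks called in growing myoblasts and 26 of the 20790 peaks called in differentiated cells.

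The lamina is a meshwork of lamin filaments beneath the inner nuclear membrane. LMNA encodes the A-type lamins, and LMNB1 and LMNB2 encode the B-type lamins. LBR, at the inner membrane, and the LAP2 proteins of TMPO bind lamins and chromatin. SUN1 and SUN2 span the inner membrane and grip the nesprins of the outer membrane, encoded by SYNE1 and SYNE2, and together they form the LINC complex that ties the nucleus to the cytoskeleton. In muscle fibres this link anchors and spaces the nuclei, and mutations in LMNA, SYNE1 and SYNE2 are known from Emery-Dreifuss muscular dystrophy. NEMP1 is an inner-membrane protein that supports the stiffness of the envelope.

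The cells were primary myoblasts from the longissimus dorsi muscle of newborn Qinchuan cattle. In the GM group they grew to 80% confluence in a medium with fetal bovine serum (0 days of differentiation), and in the DM group they were kept for 4 days in a medium with horse serum and reached 100% confluence. Each group had 3 replicates, and each replicate gave an input library of poly(A) RNA and a library of RNA immunoprecipitated (IP) with an m6A antibody, 12 libraries in all. The study's methods describe cells from 1 newborn animal, so p-values measure the spread between replicates, which may be technical, and not the spread between animals. Medium, confluence and time changed together, so their parts cannot be told apart.

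Expression is given as FPKM, the authors' fragment count scaled by transcript length and by the mapped fragments of the library, in the 3 GM and 3 DM input libraries. FPKM summed to 415700 to 434500 in the GM libraries and to 386400 to 390800 in the DM libraries. The table holds no read counts, so the number of reads behind a value is unknown here. Differences were tested with limma on log2(FPKM + 1), with Benjamini-Hochberg adjustment over the 12302 genes whose mean reached 0.5 FPKM. A gene rose or fell where the adjusted p was under 0.05, and it was called where it also differed by more than 1.5-fold on that scale. The median difference of all tested genes (DM minus GM, log2 scale) was -0.05 in FPKM and 0.06 when every library was rescaled to the same sum (TPM), and differences near these values turn on the scaling.

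The myotube markers summed to 534 to 557 FPKM in GM and 1060 to 1100 FPKM in DM, and 4 of their 6 measured genes were called higher. Myotube genes were already expressed in the cultures labelled as growing myoblasts, where the embryonic myosin gene MYH3 had a mean of 273 FPKM against 659 FPKM in DM. Of the 6 myoblast markers, 3 were called lower, and all 6 proliferation markers were called lower, with sums of 90.2 to 99.6 FPKM in GM and 18.4 to 21.9 FPKM in DM. The 6 fibroblast markers summed to 10200 to 10300 FPKM in GM and 11600 to 12100 FPKM in DM, with none called. Adipocyte, endothelial and immune markers summed to at most 2.66 FPKM in any library. Smooth muscle and pericyte markers summed to 2030 to 2480 FPKM in GM and 1630 to 1890 FPKM in DM. Nearly all of this was ACTA2, with means of 2240 FPKM in GM and 1710 FPKM in DM. The smooth muscle myosin gene MYH11 had means of 0.282 and 0.529 FPKM, and RGS5 was not analysed here. Of the 3 tested 1 was called higher, CSPG4, with means of 3.07 and 5.82 FPKM. The part of these cell types in the results below was not tested. These are bulk cultures, in which fewer cells of a type and less RNA per cell cannot be told apart.

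Of the 10 genes, all passed the filter on low values. The 4 genes called lower in DM were LMNB1, LMNB2, TMPO and LBR, and no gene was called higher, while 6.88% of all tested genes were called lower and 4.89% higher, 11.8% in all. Without the fold criterion, 6 fell (the same 4 with SUN2 and NEMP1) and 1, SUN1, rose, against 26.7% and 16.1% of all tested genes, 42.8% in all. The GM and DM libraries of these 7 genes did not overlap, nor did those of 54.1% of all tested genes. The median difference of the 10 genes was -0.38 on the log2 scale. Both B-type lamin genes, TMPO and LBR were thus called lower, while LMNA and both nesprin genes did not pass the test.

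**Figure D1:**
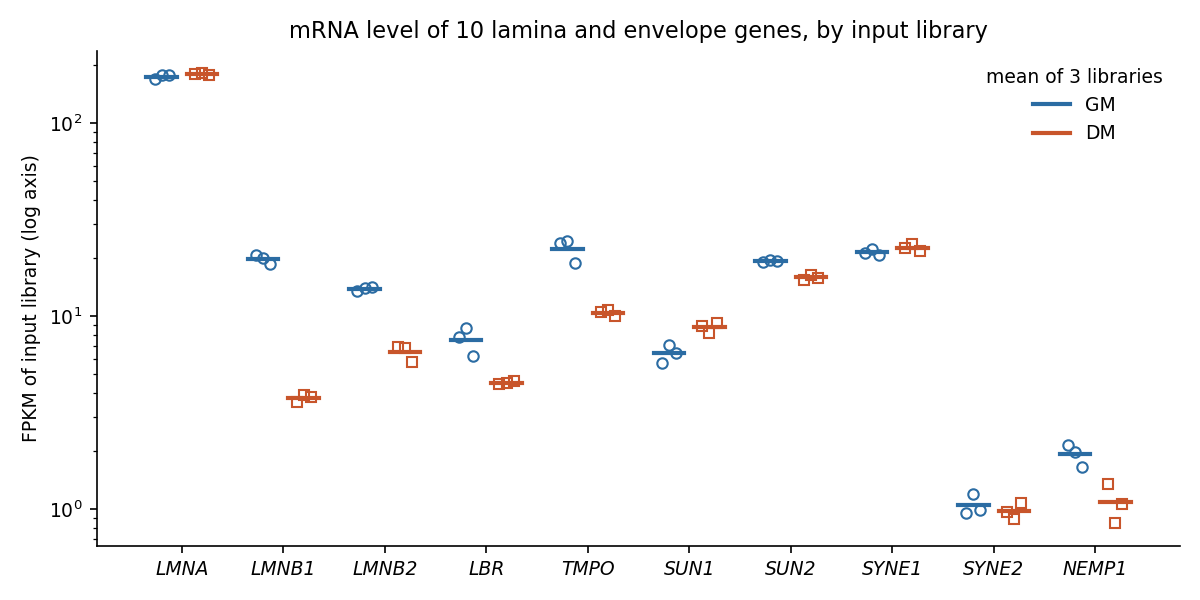
FPKM of the 10 genes on a log axis, with 1 open symbol for each GM (circles) and DM (squares) input library and a bar at the mean of 3 libraries. LMNA lay at 168 FPKM or more in every library, and the GM and DM symbols stand farthest apart for LMNB1.

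LMNA (chr3:14642915-14670926, minus strand, ARS-UCD1.2) encodes lamins A and C and was the most abundant of the 10 genes in both groups. Its level was 168, 178 and 176 FPKM in GM and 179, 181 and 177 FPKM in DM. The ranges of the groups overlapped. The means were 174 ± 5.21 and 179 ± 1.75 FPKM (SD, n = 3 per group). The difference of 0.04 on the log2 scale (95% interval -0.06 to 0.15) did not pass the test, with a limma adjusted p of 0.49. In TPM it was 0.17 with a limma adjusted p of 0.023, so the test of this gene turned on the scaling.

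LMNB1 (chr7:27122942-27175858, minus strand), the gene of lamin B1, showed the largest difference of the 10 genes. Its GM libraries gave 20.7, 19.9 and 18.5 FPKM and its DM libraries 3.59, 3.91 and 3.79 FPKM. The lowest GM library lay well above the highest DM library. The mean went from 19.7 ± 1.12 to 3.76 ± 0.163 FPKM (SD, n = 3), which is 5.24-fold lower in DM. On the log2 scale the difference was -2.12 (SE 0.063, limma adjusted p = 2.6e-07). Loss of LMNB1 is widely used as a marker of senescent cells. The 3 senescence-associated genes measured, CDKN1A, CDKN2B and GLB1, summed to 206 to 207 FPKM in GM and 236 to 247 FPKM in DM, and none was called. Their means in GM and DM were 119 and 151 FPKM for CDKN1A, 12.8 and 14 for CDKN2B, and 74.4 and 77.5 for GLB1. CDKN2A, also on that list, was not analysed here. The part of senescence and of the lower proliferation markers in the LMNB1 level was not tested.

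LMNB2 (chr7:21133347-21154526, plus strand) encodes lamin B2 and also fell. Its level was 13.5, 14.0 and 14.1 FPKM in GM against 6.91, 6.82 and 5.78 FPKM in DM. The groups did not overlap, as was the case in the same direction for 33% of all tested genes. The mean of 13.9 ± 0.316 FPKM in GM was 2.13-fold that in DM, 6.50 ± 0.627 FPKM (SD, n = 3). The log2 difference was -0.99 (SE 0.072, limma adjusted p = 1.9e-05). The neighbouring gene TIMM13 starts 452 bp past its end on the same strand, and no row of the table overlaps any of the 10 genes.

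TMPO (chr5:62686936-62712545, plus strand), which encodes the LAP2 isoforms, had 23.8, 24.5 and 18.8 FPKM in GM and 10.5, 10.7 and 9.99 FPKM in DM. The third GM library was the lowest of its group but still above all DM libraries. The means were 22.4 ± 3.12 and 10.4 ± 0.374 FPKM (SD, n = 3), a 2.15-fold lower level in DM. Its log2 difference was -1.02 (SE 0.096, limma adjusted p = 7.9e-05). Reads of its 5 transcripts are summed in 1 value, so the isoforms cannot be told apart.

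LBR (chr16:28446036-28472860, minus strand) encodes the lamin B receptor, which is also a sterol reductase. It was measured at 7.78, 8.66 and 6.19 FPKM in GM and 4.45, 4.49 and 4.58 FPKM in DM. The DM libraries lay within a narrow band, and the groups did not overlap. Its mean was 7.54 ± 1.26 FPKM in GM and 4.51 ± 0.0709 FPKM in DM (SD, n = 3), 1.67-fold lower. The log2 difference was -0.62 (SE 0.104, limma adjusted p = 0.0018). This lies near the 1.5-fold line: without the second GM library the difference was -0.53, and in TPM or with median-of-ratios size factors it was -0.57, so LBR was then past the test but not called.

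Of the LINC genes, SUN1 and SUN2 moved in opposite directions. SUN1 (chr25:41821515-41866736, minus strand) had 5.69, 7.09 and 6.43 FPKM in GM and 8.91, 8.20 and 9.21 FPKM in DM. All DM libraries were above all GM libraries, which held in this direction for 21.1% of all tested genes. The mean rose from 6.40 ± 0.696 to 8.77 ± 0.517 FPKM (SD, n = 3), 1.37-fold, with a log2 difference of 0.40 (SE 0.082, limma adjusted p = 0.0049).

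SUN2 (chr5:110358967-110377270, minus strand) was at 19.0, 19.4 and 19.3 FPKM in GM and 15.4, 16.3 and 15.8 FPKM in DM. Here all GM libraries were above all DM libraries. The mean fell from 19.2 ± 0.236 to 15.8 ± 0.460 FPKM (SD, n = 3), with a log2 difference of -0.26 (SE 0.049, limma adjusted p = 0.0031). In TPM the difference was -0.15 and missed the test, with a limma adjusted p of 0.058.

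SYNE1 (chr9:89115405-89174252, minus strand), the gene of nesprin 1, had 21.2, 22.3 and 20.6 FPKM in GM and 22.4, 23.5 and 21.6 FPKM in DM. The groups overlapped. Means of 21.4 ± 0.847 and 22.5 ± 0.945 FPKM (SD, n = 3) gave a log2 difference of 0.07 (SE 0.055, limma adjusted p = 0.33), and in TPM 0.20 (limma adjusted p = 0.041). The row spans 58.8 kb and holds 1 transcript with 17 exons, so this value describes a short stretch at the 3′ end of a gene known for giant transcripts. Upstream of it on the same strand lie 4 rows without a symbol before the next named gene, FBXO5, with gaps of 63.4 to 294 kb from the SYNE1 row. RefSeq, on the other assembly ARS-UCD2.0, places no protein-coding gene within SYNE1 and has ESR1 and MYCT1 as its protein-coding neighbours. The row nearest to SYNE1 had means of 17.5 FPKM in GM and 15.6 FPKM in DM (limma adjusted p = 0.1). The second had means of 3.15 and 3.005 FPKM (limma adjusted p = 0.61). The third row fell from 1.33 to 0.670 FPKM, with a log2 difference of -0.48 (limma adjusted p = 0.0018), and the fourth from 1.01 to 0.552 FPKM (limma adjusted p = 0.042), and neither was called. The table does not assign these rows to SYNE1, and whether they hold its longer transcripts was not tested.

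SYNE2 (chr10:76116422-76386867, plus strand), the gene of nesprin 2, was the least abundant of the 10 genes. Its values were 0.950, 1.202 and 0.984 FPKM in GM and 0.968, 0.888 and 1.07 FPKM in DM. The groups overlapped, with means of 1.05 ± 0.137 and 0.975 ± 0.0917 FPKM (SD, n = 3). The log2 difference of -0.05 (SE 0.085, limma adjusted p = 0.68) had no stable direction, being 0.02 in TPM and 0.0049 without the second GM library. Unlike SYNE1, its row covers 270 kb.

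NEMP1 (chr5:56356649-56375772, plus strand) had 2.15, 1.97 and 1.65 FPKM in GM and 1.35, 0.846 and 1.06 FPKM in DM. All GM libraries lay above all DM libraries. The mean of 1.92 ± 0.250 FPKM in GM was 1.77-fold that in DM, 1.09 ± 0.252 FPKM (SD, n = 3). At this low level the pseudocount shrinks the log2 difference to -0.49 (SE 0.110, limma adjusted p = 0.0077), and with a pseudocount of 0.1 it was -0.78 and the gene was called.

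**Figure D2:**
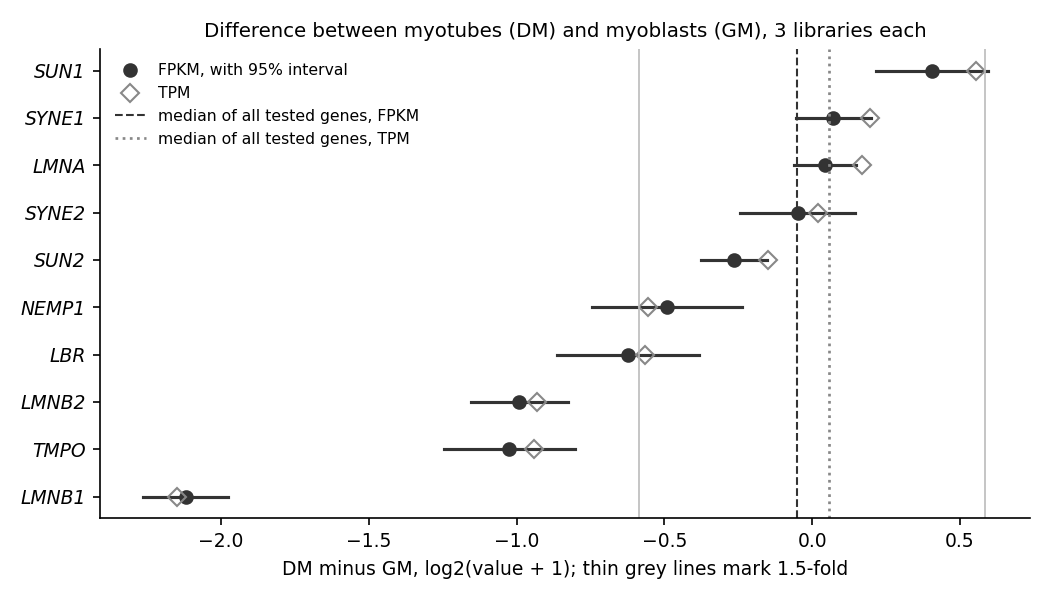
Difference of DM minus GM in log2(FPKM + 1) for each of the 10 genes (filled circles, with 95% intervals from limma) and in log2(TPM + 1) (open diamonds). The vertical lines mark the medians of all tested genes, -0.05 in FPKM and 0.06 in TPM, and 1.5-fold in either direction. LMNB1 stands apart at -2.12.

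The order of the levels differed between the groups. In GM, LMNA was followed by TMPO, SYNE1, LMNB1 and SUN2, whose neighbouring ranges overlapped, then by LMNB2, by LBR and SUN1, which overlapped, by NEMP1 and by SYNE2. In DM the order was LMNA, SYNE1, SUN2, TMPO, SUN1, LMNB2, LBR, LMNB1, NEMP1 and SYNE2, and of these neighbours only NEMP1 and SYNE2 overlapped. LMNB1 moved from rank 4 in GM to rank 8 in DM.

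Ratios within a library do not depend on how the libraries are scaled. LMNA over LMNB1 was 8.1, 8.92 and 9.52 in GM and 49.9, 46.3 and 46.8 in DM, a 5.38-fold higher mean. LMNA over LMNB2 was 12.4, 12.7 and 12.5 in GM and 25.9, 26.5 and 30.7 in DM, 2.21-fold higher. Against the sum of both B-type lamins, LMNA stood at 5.18 ± 0.255 in GM and 17.5 ± 0.914 in DM (SD, n = 3). In all 3 ratios every DM library was above every GM library.

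The B-type lamins also differed from each other. LMNB1 over LMNB2 was 1.53, 1.42 and 1.31 in GM and 0.520, 0.573 and 0.657 in DM, so LMNB1 was the more abundant of the pair in all GM libraries and the less abundant in all DM libraries. SUN1 over SUN2 was 0.300, 0.365 and 0.333 in GM and 0.578, 0.502 and 0.584 in DM, 1.67-fold higher. LMNA over LBR was 23.5 ± 4.35 in GM and 39.8 ± 0.910 in DM (SD, n = 3). SYNE1 over SYNE2 was 20.6 ± 1.92 and 23.3 ± 3.15 (SD, n = 3), with overlapping groups (exact two-sided permutation p = 0.3). Of the 8 ratios computed, the other 7 did not overlap between the groups. Each had an exact two-sided permutation p of 0.1, the smallest that 3 against 3 libraries can give, and 0.114 after Benjamini-Hochberg adjustment over the 8 ratios. The ratios share genes, so they are not independent results. Of single tested genes 54.1% did not overlap, and no such share was computed for ratios.

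**Figure D3:**
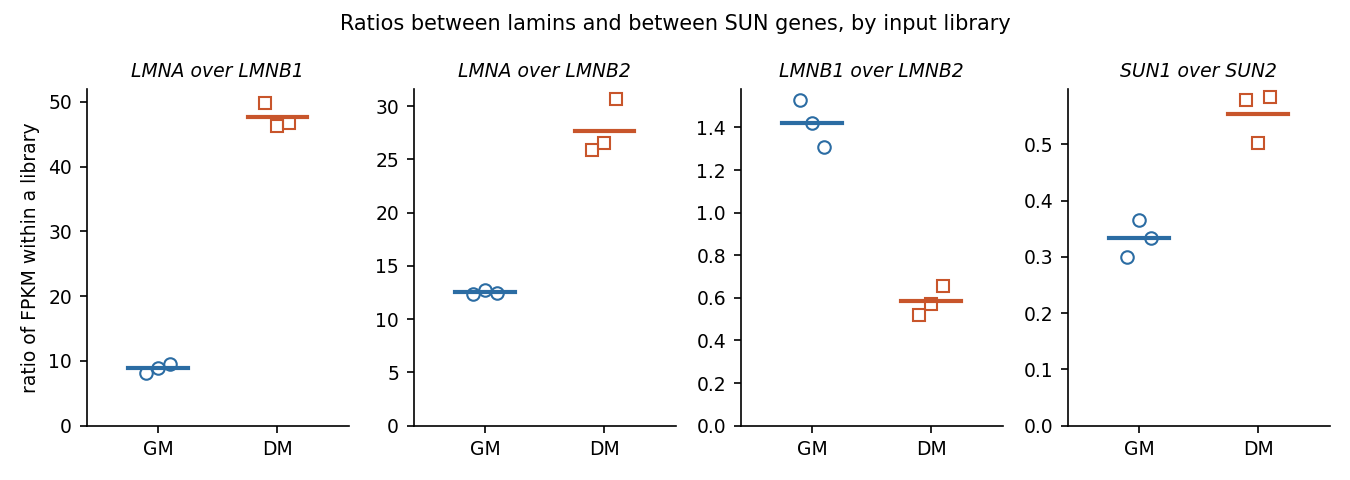
Ratio of the FPKM of 2 genes within each input library, with open symbols for the 3 GM and 3 DM libraries and a bar at the mean; each axis starts at 0. LMNA over LMNB1 goes from a mean of 8.85 to 47.6, and LMNB1 over LMNB2 from 1.42 to 0.583.

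The genes most like LMNB1 over the 6 input libraries, by Pearson r of log2(FPKM + 1), were HSPB7 at 0.9997, SDC2 and CDC20 at 0.9996, and ACSS3 and IGFBP3 at 0.9995. The libraries form 2 clusters by group, so r mostly measures the step between them, and 398 of the 12292 other tested genes had an r above 0.99. CDC20, an activator of the anaphase-promoting complex, fell from 13.3 to 0.768 FPKM. IGFBP3, a binding protein of insulin-like growth factors, fell from 24.7 to 8.98 FPKM.

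A further list, of the inner nuclear membrane, the LINC complex and their partners, included genes that fell and genes that rose. Being on this list does not place a protein in the inner membrane or the LINC complex. Of 23 genes listed, 19 were tested, with 2 called lower and 1 higher, against 6.88% and 4.89% of all tested genes. Without the fold criterion 5 fell and 6 rose, against 26.7% and 16.1%, and their median difference was 0.05 on the log2 scale against -0.05 for all tested genes. NRM (nurim), a multipass inner-membrane protein, fell from 10.7 ± 0.514 to 6.08 ± 0.538 FPKM (log2 difference -0.73, limma adjusted p = 0.00011). LPCAT3, a phospholipid acyltransferase, fell from 16.7 ± 0.319 to 10.2 ± 1.43 FPKM (log2 difference -0.67, limma adjusted p = 0.00049).

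TOR1B, a torsin ATPase of the perinuclear space, rose from 15.4 ± 0.841 to 28.8 ± 1.33 FPKM (log2 difference 0.86, limma adjusted p = 1.5e-05). Its libraries were 14.6, 16.3 and 15.3 FPKM in GM and 30.2, 27.5 and 28.8 FPKM in DM, without overlap. EMD and LEMD1 were not analysed here.

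Among 6 genes of prelamin processing (farnesylation, trimming and methylation, with the prelamin-binding factor NARF), none was called and FNTA, a farnesyltransferase subunit, fell without the fold criterion. Of the nuclear pore complex, 27 genes were tested, 13 fell and none rose, against 26.7% and 16.1% of all tested genes, with a median difference of -0.17. Only AAAS (aladin) among the 27 was called, while 6.88% of all tested genes were called lower. It was measured at 14.9 ± 0.531 FPKM in GM and 7.83 ± 0.211 FPKM in DM (log2 difference -0.85, limma adjusted p = 9.6e-06). The genes NUP42, POM121 and TPR were not analysed here.

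The 14 kinases and factors that take the envelope apart in mitosis and rebuild it had a median difference of -1.18, with 8 called lower and none higher, against 6.88% and 4.89% of all tested genes. The largest falls were in the mitotic cyclins and kinases. CCNB1, the cyclin partner of CDK1, fell from 25.9 ± 0.931 to 2.17 ± 0.383 FPKM (log2 difference -3.09, limma adjusted p = 2.6e-07). CCNB2 fell from 9.72 to 0.766 FPKM, NEK2 from 4.99 to 0.235 FPKM and PLK1 from 10.5 to 1.58 FPKM. VRK1, which phosphorylates the chromatin-envelope tether BANF1, fell from 18.8 to 9.79 FPKM. The ESCRT genes CHMP2A, CHMP7, VPS4A and VPS4B, which seal the rebuilt envelope, did not pass the test.

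**Figure D4:**
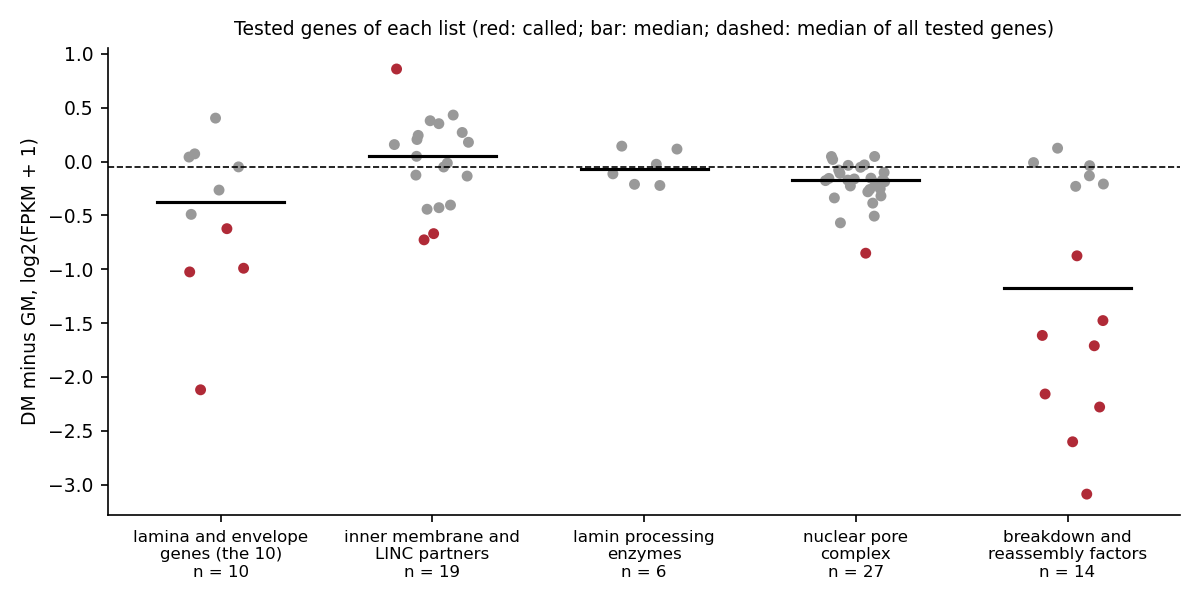
Difference of DM minus GM in log2(FPKM + 1) for the 10 genes and for the tested genes of 4 further lists, 1 point per gene, red where called, with a bar at each median and a dashed line at the median of all tested genes, -0.05. The breakdown and reassembly list has the lowest median, -1.18, and the inner membrane and LINC list lies around 0.05.

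N6-methyladenosine (m6A) is a mark that the METTL3-METTL14 complex sets on mRNA, often near stop codons and in 3′UTRs. The authors called peaks with exomePeak on the pooled libraries of each group. A peak in these lists therefore has 1 fold enrichment of IP over input per group, no replicate error and no test between groups. Of the 10 genes, 7 had a GM peak and 9 a DM peak, against 70.9% and 78.7% of all tested genes. LBR had none in either list, like 19% of tested genes. The median fold enrichment of the peaks in these genes was 2.61 in GM and 2.01 in DM, below the medians of the whole lists, 3.27 and 3.38. By annotation, 7 GM peaks lay in 3′UTRs, 13 in other exons and 3 in 5′UTRs, against 7, 17 and 2 in DM. Each peak has 1 label, also where it spans several exons.

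The exon blocks of 11 pairs, each of 1 GM and 1 DM peak, overlapped on the same strand. In 4 of the pairs (36.4%) the fold enrichment was over 1.5-fold higher in DM and in none over 1.5-fold lower, against 14.2% and 10.8% of all 10239 such pairs, 25% in all. The median log2 ratio of the 11 pairs was 0.08, near the 0.07 of all pairs. They lay in LMNB1, LMNB2, NEMP1 and SYNE2, and none of the 4 reached 2-fold. Where the shared bases had to cover 50% or more of each peak, 8 pairs were left with 3 higher, of which the LMNB2 3′UTR pair was the one shared with the 4 above. The others were an LMNB2 pair, with a ratio of 5.14, and a 3′UTR pair of SYNE1, with a ratio of 1.88. The LMNB2 pair is annotated to the 5′UTR, but its peaks span most of the gene, in 5 exon blocks in GM and 10 in DM. Each of these DM peaks also overlapped a second GM peak, which the stricter rule set aside. Against that second peak the ratio was 8.08 in LMNB2 and 0.844 in SYNE1.

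The LMNB1 pair sits at the annotated 3′ end of the gene. Its GM peak (chr7:27122942-27123091, 150 nt) had a fold enrichment of 9.07 and its DM peak (chr7:27122942-27123388, 447 nt) of 17.0, a ratio of 1.87. This places the peak above 90.7% of the GM list and 97.8% of the DM list. The DM peak is longer and shares 33.6% of its bases with the GM peak, so the values average over different stretches. A second LMNB1 pair, annotated to exons, was weak in both groups, at 1.49 and 1.72, and a peak at the 5′UTR with a fold enrichment of 1.47 was in the GM list only.

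In LMNB2 the 3′UTR pair (GM chr7:21153837-21154466, DM chr7:21153837-21154526) went from 4.38 to 6.95, a ratio of 1.59 over nearly the same stretch, with 91.3% of the DM peak shared. Of all pairs annotated to a 3′UTR in both lists, 13.7% were over 1.5-fold higher in DM. Upstream, GM peaks of 3.11 (1110 nt) and 1.98 (810 nt) both overlapped 1 DM peak of 16.0 (2218 nt in 10 exon blocks), so they formed no pair of 1 GM and 1 DM peak. A further DM peak of 4.79 at the 5′ end had no GM counterpart. All the DM values of LMNB2 exceeded its highest GM value, in different stretches of the gene.

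NEMP1 had a pair of 2.07 in GM (241 nt) and 3.55 in DM (750 nt), a ratio of 1.71, and a 5′UTR peak of 2.34 in GM only. In this pair the GM peak is annotated to an exon and the DM peak to the 3′UTR. Only 28.1% of the DM peak is shared, so the values average over different stretches. The paper's own differential analysis lists NEMP1 among its genes with the largest m6A rise, at a 3′UTR peak, and with lower mRNA. That analysis used another mRNA test and a peak with other bounds, so its calls are not those made here. LMNB1 and LMNB2, whose mRNA was called lower, held 3 pairs, of which 2 were over 1.5-fold higher. SUN2, whose mRNA fell without being called, held 3 pairs, of which none was, and NEMP1, likewise not called, held 1. Among all pairs, 21.3% of those in genes called lower were over 1.5-fold higher in DM, against 12.2% in genes not called and 8.42% in genes called higher. Fold enrichment has input in its denominator, so it is not independent of the mRNA level.

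SYNE2, whose mRNA did not pass the test, carried the most peaks, 8 in GM and 10 in DM, spread over its exons and 3′UTR. The pair at exon 29 of 115 went from 2.96 to 4.90, a ratio of 1.66, while the pair at exons 22 and 23 went from 2.66 to 2.00. Of its peaks, 4 in GM and 7 in DM had no overlap in the other list. With SYNE2 at about 1 FPKM, peaks rest on little input, and its highest GM peak, 7.62 in exon 42, had a false discovery rate of 0.13. Of the 7 DM peaks without overlap, 3 had false discovery rates of 0.062, 0.063 and 0.11.

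SYNE1 had a 3′UTR signal in both groups. In GM it was split into peaks of 8.01 (61 nt) and 3.59 (720 nt), and in DM it was 1 peak of 6.76 over 960 nt (chr9:89115405-89116364). Its exon pair was weak, at 1.28 and 1.21. The LMNA pair, annotated to an exon, stood at 1.27 and 1.18, and the 3 SUN2 pairs at 1.43 to 1.73 in GM and 1.44 to 1.66 in DM. The single DM peaks of TMPO (1.17) and SUN1 (1.72) had false discovery rates of 0.058 and 0.13.

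**Figure D5:**
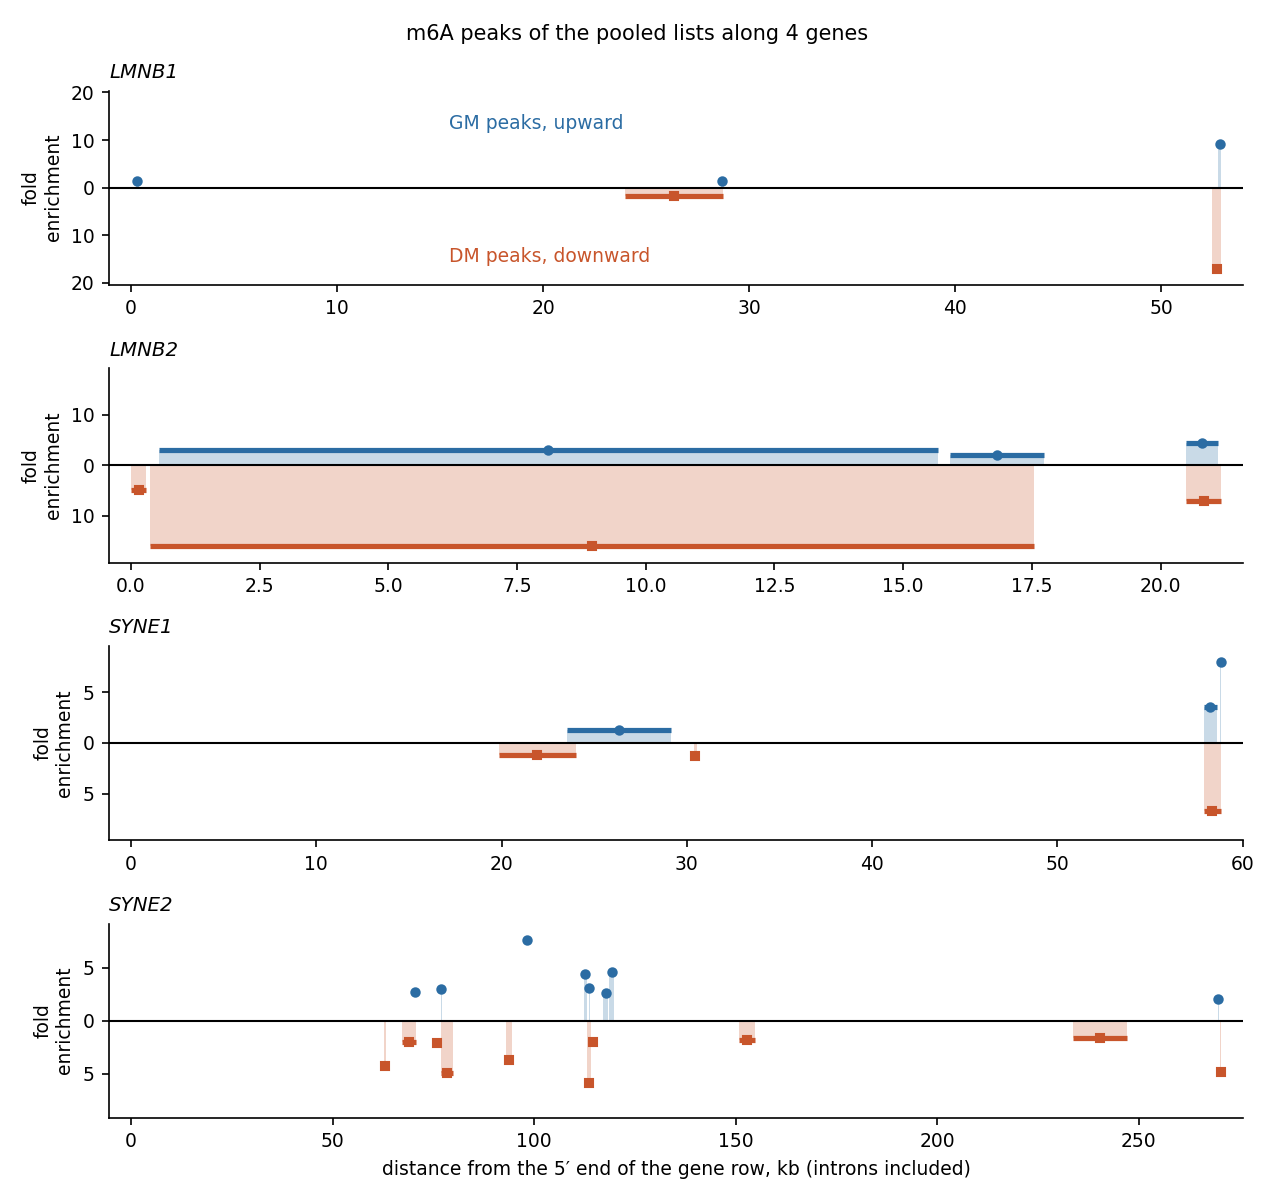
Peaks of the pooled GM list (upward) and DM list (downward) along LMNB1, LMNB2, SYNE1 and SYNE2, by distance in kb from the 5′ end of the gene's row, introns included. The height is the authors' fold enrichment of IP over input, and a shaded block spans the peak with any introns inside it. LMNB1 peaks at its 3′ end, 9.07 in GM and 17.0 in DM, and the LMNB2 peak of 16.0 in DM spans most of the gene.

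Peaks in the other envelope lists were paired in the same way, and are to be read against the 14.2% of all pairs that were over 1.5-fold higher in DM and the 10.8% that were lower. The inner membrane and LINC list had 19 pairs, with none higher and 3 lower in DM, in BANF1, WFS1 and SYNE4. The mean of SYNE4 did not reach the filter of 0.5 FPKM, so its peaks rest on little input. The nuclear pore list had 9 pairs, of which 4 were higher, in NUP153, NUP155, NUP85 and RAE1, and none lower. Of 7 pairs in the lamin-processing enzymes, 2 were higher, in RCE1 and ZMPSTE24, the protease that trims prelamin A. Of 12 pairs in the breakdown and reassembly list, 2 were higher and 1, in PPP2R2A, was lower. The higher ones were 3′UTR peaks of AURKA, from 2.91 to 10.6, and NEK2, from 2.80 to 7.45, and the mRNA of both fell. Of the other genes with higher pairs, NUP153 and NUP155 fell (limma adjusted p = 0.02 and 0.037). NUP85, RAE1, RCE1 and ZMPSTE24 did not pass the test. BANF1, WFS1 and PPP2R2A, whose pairs were lower, also fell in mRNA (limma adjusted p = 0.00069, 0.0022 and 0.019). The changed pairs thus went both ways in genes whose mRNA fell.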

How the data were processed

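Input and m6A IP libraries of GM and DM cells were grouped by GEO's labels. Per the labels and methods, the authors trimmed strand-specific reads, aligned them with HISAT2 to ARS-UCD1.2 and computed FPKM with StringTie, and these FPKM are deposited for the 6 inputs. The submitters' processing notes also name cutadapt, fastp, HOMER and ChIPseeker, and tool versions are not given in the sources used here. The authors called peaks with exomePeak on pooled libraries. The deposited peak lists give fold enrichment as a linear ratio made by the authors. They also give the authors' p-value as a score column, and the authors' log10 of p and of the false discovery rate. The authors' own fold changes between groups were not used. Depth per library is not in the files, so precision is the spread of 3 libraries, and peaks have no error.

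Expression was tested with limma 3.58.1 (R 4.3.3), as log2(FPKM + 1) and with a variance trend, where the mean reached 0.5 FPKM, with Benjamini-Hochberg adjustment and no replicate block. Peaks were paired in Python 3.11.15 with pandas 2.3.3 and numpy 2.4.6, by at least 1 shared base of exon blocks on the same strand, and plots drawn with matplotlib 3.10.9. TPM is FPKM rescaled to the same sum per library. Scripts were tested on simulated data. All 10 genes are named, and of other lists up to 4 called genes in each direction, plus the 5 genes most like LMNB1. Details of CSPG4, ACTA2, MYH11, FNTA, NARF, VRK1, CDC20 and IGFBP3 were chosen after their values were seen. So were those of single senescence-associated genes, SYNE4, the ESCRT genes, the rows upstream of SYNE1 and the changed peak pairs. The genes and lists were chosen with earlier results of these data known. Alternatives covered pseudocount, filter, scaling, variance trend, block, thresholds, each library left out, and stricter peaks and overlaps. Peaks per sample and IP libraries were not analysed here.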

Additional observations from a re-analysis of the deposited data

How the results depend on the processing

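Of 150 log2 differences of the 10 genes recomputed under 15 alternatives, 145 kept their direction and their side of the adjusted p of 0.05. The 1.5-fold line, which also decides a call, was crossed by LBR in TPM (-0.57), with median-of-ratios size factors (-0.57) and without the second GM library (-0.53), and by NEMP1 with a pseudocount of 0.1 (-0.78). In TPM, LMNA (0.17, limma adjusted p = 0.023) and SYNE1 (0.20, limma adjusted p = 0.041) passed the test, SUN2 (-0.15, limma adjusted p = 0.058) did not, and SYNE2 turned to 0.0193. With each library left out in turn, SYNE2 ranged from -0.0838 to 0.0049, the latter without the second GM library. The count of the 10 genes called lower was 3 in TPM, with median-of-ratios size factors and without the second GM library, 5 with a pseudocount of 0.1 and 2 at a fold over 2. At a fold over 2, 504 genes of the table were called, 232 higher and 272 lower. In TPM 1046 genes were called higher, which made up 55.1% of all calls against 41.6% in FPKM and 49% with median-of-ratios size factors. The TPM fit tested 13494 genes against 12302, since the filter and the pseudocount act on larger values there. In the inner membrane and LINC list, 2 genes were called higher with a pseudocount of 0.1 and in TPM, and 1 was called lower in TPM. In the nuclear pore list 2 were called lower with a pseudocount of 0.1. At a fold enrichment of at least 2, 15 GM and 14 DM peaks of the 10 genes remained, and at a false discovery rate under 0.001, 16 GM and 16 DM peaks. Of the 11 pairs, 0 were higher by more than 2-fold. Where shared bases had to cover 50% or more of each peak, 3 of 8 pairs were higher by more than 1.5-fold, in LMNB2 (5.14 and 1.59) and SYNE1 (1.88). Of the 4 higher pairs of the main rule, only the LMNB2 pair at 1.59 was kept. The pairs at 5.14 and 1.88 arose because a second GM peak in the same DM peak was set aside. For SYNE1 that second peak gave a ratio of 0.844, in the other direction.

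Same-numbered GM and DM libraries correlated in their deviations from the group means at -0.0792, -0.123 and -0.208. Differently numbered libraries correlated at -0.0594 to 0.187. Deviations within a group sum to 0 and paired cultures need not correlate, so these values cannot decide whether the replicate numbers pair the cultures. With a replicate block 1459 genes were called against 1448, 4 of the 10 genes were again called lower and 0 higher, and no other call of the 10 genes changed. The cause of the changes listed above was not tested. Log2 differences of genes near 1 FPKM, such as SYNE2 and NEMP1, depend on the pseudocount, and peaks carry no replicate error.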
